A study of Homo sapiens with 12 samples.

Results

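The enzymes described here make asparagine, proline, aspartate and alanine or exchange nitrogen with glutamate. They are ASNS, PYCR1, PYCR3, ALDH18A1, GPT2, GOT1, GOT2 and GLUD1, taken by gene symbol from a list of enzymes of non-essential amino acid synthesis. All 8 were found among the 60648 genes of the deposited count table, and all 8 passed the filter on low counts that left 18289 genes for testing. All RNA came from HCT116 cells, an established line of human colorectal carcinoma, grown in DMEM with serum and antibiotics. The 12 poly-A selected libraries form 4 groups of 3: MTHFD2-WT (wild type) and MTHFD2-KO (knock-out), each taken just after the knock-out was made (initial) and again once the cells had been cultured for 2 months (final). MTHFD2 is a mitochondrial enzyme of the folate pathway. The knock-out was made with CRISPR-Cas9 and is 1 clone, so the loss of MTHFD2 and other properties of that clone cannot be told apart. The labels number the 3 libraries of a group and do not say whether they came from separate cultures, so p-values measure the spread between these libraries.

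Glutamate sits at the centre of these reactions. ALDH18A1 turns it into pyrroline-5-carboxylate, which the PYCR enzymes reduce to proline, PYCR1 in mitochondria and PYCR3 in the cytosol. GOT1 in the cytosol and GOT2 in mitochondria exchange the amino group between glutamate and aspartate, and GPT2, in mitochondria, does so between glutamate and alanine. GLUD1 releases the nitrogen of glutamate as ammonium, and ASNS moves the amide nitrogen of glutamine onto aspartate to give asparagine. Standard DMEM contains glutamine but no asparagine, proline, aspartate, alanine or glutamate. Several of these genes, ASNS best known among them, are activated by the transcription factor ATF4 when amino acids are short, through C/EBP-ATF response elements in their promoters.

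Promoter windows of RefSeq (GRCh38.p14, 250 bases before to 50 after a start site) were found for ASNS, ALDH18A1, GOT1, GOT2 and GLUD1, which makes 6 windows for 5 genes because ASNS has 2 start sites. They were searched on both strands for TGATGNAA, the core of the C/EBP-ATF response element, and for TGACGTCA, the ATF and CREB palindrome, which cannot match the same bases. TGATGNAA occurred in an ASNS window and in the GOT1 window. It occurs in 3.62% of 35116 RefSeq promoter windows of this length and in 2.02% of the 17402 windows of tested genes. TGACGTCA, present in 1.85% and 2.67% of the same sets, had no match in the 6 windows. GPT2, PYCR1 and PYCR3 had no window and were not searched for either motif. The bases upstream of both start sites are shown because they hold the matches, in capitals, in members whose transcripts were lower in the knock-out; ASNS lies at chr7:97872409-97872658 and GOT1 at chr10:99430625-99430874, both on the minus strand of GRCh38.
ASNS: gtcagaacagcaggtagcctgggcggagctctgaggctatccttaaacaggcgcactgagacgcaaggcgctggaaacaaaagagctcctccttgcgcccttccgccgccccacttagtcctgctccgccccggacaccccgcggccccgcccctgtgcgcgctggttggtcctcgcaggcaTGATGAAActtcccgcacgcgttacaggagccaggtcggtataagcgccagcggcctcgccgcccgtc
GOT1: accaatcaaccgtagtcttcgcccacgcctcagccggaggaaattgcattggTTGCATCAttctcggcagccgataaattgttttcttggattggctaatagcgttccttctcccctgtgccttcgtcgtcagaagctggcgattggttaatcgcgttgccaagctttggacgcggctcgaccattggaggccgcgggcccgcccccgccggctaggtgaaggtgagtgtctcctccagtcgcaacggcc
The ASNS match, TGATGAAA on the strand of the gene, begins at position -68 from the start site, and the GOT1 match, TGATGCAA on the opposite strand and so printed as its reverse complement, begins at position -198. For ASNS this start site, 97872408, lies 134 bases inside the gene of the count table, which starts upstream at 97872542. The ASNS match therefore falls within that gene span. A match describes letters in a window and is not a measurement of binding.

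Library totals ran from 38597809 to 40017561 counts. Levels are given in the usual CPM unit of edgeR, a gene's counts over the library total scaled by TMM (a correction for composition). MTHFD2, the check of the labels, lay between 319 and 457 CPM in the 6 wild-type libraries and between 123 and 155 CPM in the 6 knock-out libraries (initial log2 fold change -1.59, final -1.38). Of 9 epithelial and intestinal markers, EPCAM, KRT8, KRT18, CDH1 and CDX2 exceeded 1 CPM in every library, while CDX1 had at most 1 count and CEACAM5 at most 5. Their summed level was 2150 to 2550 CPM in the initial and 2380 to 2520 CPM in the final wild type, and 1980 to 2160 CPM and 1800 to 2050 CPM in the knock-out. Of 10 markers of other cell types, summed to at most 83.9 CPM in a library, COL1A1 (36.2 to 77.3 CPM) held most, CD3E had 0 counts throughout and PTPRC at most 2. Single markers moved in both directions between the genotypes. Of the epithelial ones, CDH1 (initial log2 fold change -1.01, final -0.44) and EPCAM (-0.36, -0.31) were called lower in both comparisons, KRT18 (-0.25, -0.36) and KRT20 (-1.33, -2.06, at 2 to 27 counts) in the final one alone, and KRT8 (-0.02, -0.34) and CDX2 (0.19, 0.01) in neither. Of the others, COL1A1 was called lower (-0.60, -0.48), while VIM (1.20, 0.96), PDGFRB (0.96, 1.08, at 22 to 73 counts) and ALB (1.35, 1.38, at 9 to 45 counts) were called higher, and PECAM1 and VWF were not called. The part of these marker shifts in the results below was not tested.

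The knock-out had fewer transcripts of ASNS, GPT2, GOT1 and PYCR1 than the wild type, at both harvests. PYCR3, ALDH18A1, GOT2 and GLUD1 did not pass the test at either harvest. The 4 genes that fell are 4 of 8 members at each harvest, where 11.3% (initial) and 10.2% (final) of all tested genes were called lower (edgeR quasi-likelihood test, Benjamini-Hochberg adjusted p under 0.05). The members' median log2 fold change was -0.14 and -0.22, beside 0.00 over all tested genes in both comparisons. No member was called higher, beside 8.55% and 8.38% of tested genes. Leaving out initial wild-type replicate 2 changed this for PYCR3 and GOT2 at the initial harvest. The genes that fell, ASNS, GPT2, GOT1 and PYCR1, had all 6 knock-out libraries below all 6 wild-type libraries, an arrangement found in 7.29% of tested genes. That these and other ATF4-linked genes were lower was known from earlier results of these data when the list was made, so the count is a description.

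**Figure D1:**
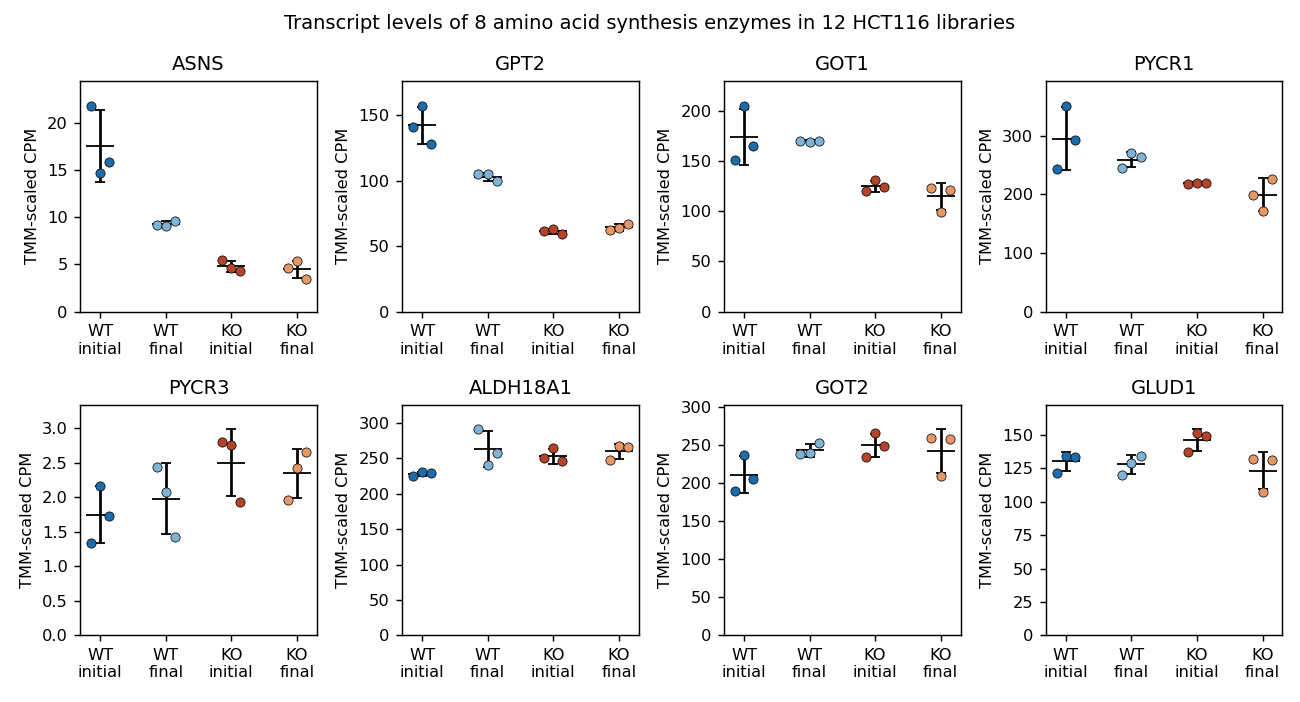
Transcript levels of the 8 enzymes (y axis, TMM-scaled CPM, starting at 0) in the 4 groups (x axis; WT, wild type; KO, knock-out); points are the 3 libraries, the bar is the mean and the whiskers are the SD. In the upper row all knock-out points lie below all wild-type points (for GPT2, 59.4 to 66.8 against 99.8 to 157 CPM); in the lower row the final groups overlap between genotypes.

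ASNS, asparagine synthetase (ENSG00000070669.17, hg38 chromosome 7, 97851677 to 97872542, minus strand), had the largest fold change of the 8. Just after knock-out it measured 21.8, 14.7 and 15.8 CPM in wild-type and 5.47, 4.66 and 4.36 CPM in knock-out libraries. After culture it measured 9.17, 9.09 and 9.6 CPM in wild-type and 4.65, 5.33 and 3.49 CPM in knock-out libraries. The wild type thus spans more than the knock-out, with its highest library in the initial group, and the genotypes do not overlap at either harvest. ASNS was 3.61-fold lower at the initial harvest (log2 fold change -1.85, SE 0.162, edgeR adjusted p 5.03e-07) and 2.07-fold lower at the final harvest (-1.05, SE 0.166, adjusted p 0.00025).

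ASNS had 139 to 893 counts in a library, and much of the gene overlaps another. Of its 4896 exon bases, 2415 (49.3%) also belong to exons of ENSG00000284707 on the same strand, and these include 1683 of its 1686 coding bases in GENCODE 29. Of the 2481 bases that are ASNS alone, 742 are untranslated parts of protein-coding transcripts and 1736 lie outside those transcripts. How reads in shared exons were counted is not given in the sources used here, so the level of ASNS is not set against that of other genes. ENSG00000284707 itself had 29 to 45 counts in the wild-type and 36 to 53 in the knock-out libraries and did not pass the test at the initial (log2 fold change -0.03, edgeR adjusted p 0.935) or final harvest (0.32, adjusted p 0.314). These counts lay below those of ASNS in every library, although the exons of ENSG00000284707 hold nearly all ASNS coding bases. The counts and fold changes of ASNS may therefore rest mainly on bases that are ASNS alone, nearly all non-coding, which was not tested.

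GPT2, the mitochondrial alanine transaminase (ENSG00000166123.14, chromosome 16, 46884362 to 46931289, plus strand), had 141, 157 and 128 CPM in the initial wild type and 61.2, 63.4 and 59.4 CPM in the initial knock-out. After culture it had 105, 105 and 99.8 CPM in wild-type and 62, 63.9 and 66.8 CPM in knock-out libraries. The 6 knock-out libraries lie close together, and the initial wild-type group stands above the final one. GPT2 was 2.32-fold lower initially (log2 fold change -1.21, SE 0.081, edgeR adjusted p 2.43e-08) and 1.61-fold lower at the final harvest (-0.69, SE 0.08, adjusted p 1.13e-05). No other gene of the table overlaps it.

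GOT1, the cytosolic aspartate transaminase (ENSG00000120053.12, chromosome 10, 99396870 to 99430624, minus strand), had 151, 205 and 165 CPM in the initial wild type and 120, 131 and 124 CPM in the initial knock-out. The final values were 170, 169 and 170 CPM for wild-type and 123, 99.2 and 121 CPM for knock-out libraries. Genotypes do not overlap, although replicate 2 stands above the others in the initial wild type and below them in the final knock-out. GOT1 was 1.39-fold lower at the initial (-0.48, SE 0.106, edgeR adjusted p 0.0043) and 1.48-fold lower at the final harvest (-0.56, SE 0.107, adjusted p 0.00121).

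PYCR1, the mitochondrial reductase of the last step to proline (ENSG00000183010.17, chromosome 17, 81932384 to 81942412, minus strand), had 243, 351 and 292 CPM in the initial wild type and 218, 220 and 220 CPM in the initial knock-out. The final values were 245, 270 and 263 CPM for wild-type and 199, 171 and 227 CPM for knock-out libraries. Its groups do not overlap, with the lowest wild-type library at 243 CPM and the highest knock-out library at 227 CPM. Of the 2886 exon bases of PYCR1, 858 (29.7%) also belong to other genes, none of them coding. MYADML2, on the same strand, shares 408 and had 5 to 28 counts. ENSG00000263585, on the other strand, shares 450 and had 0 counts. PYCR1 was 1.35-fold lower at the initial (-0.43, SE 0.12, edgeR adjusted p 0.0185) and 1.3-fold lower at the final harvest (-0.38, SE 0.12, adjusted p 0.0346). The initial call was lost without initial wild-type replicate 2 (-0.29, adjusted p 0.0612) and without each initial knock-out library (adjusted p 0.0625, 0.0618 and 0.0531 without replicates 1, 2 and 3). The final call was lost without final wild-type replicate 2 or 3 (adjusted p 0.11 and 0.0907), final knock-out replicate 1 or 2 (0.0897 and 0.158) and initial knock-out replicate 2 (0.0507); the average over both harvests (-0.41, adjusted p 0.00162) was called in every alternative run.

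The other listed genes of proline synthesis did not pass the test. ALDH18A1, which makes the precursor that PYCR1 reduces (ENSG00000059573.9, chromosome 10, 95605941 to 95656711, minus strand), had 225, 231 and 229 CPM in the initial wild type and 250, 265 and 246 CPM in the initial knock-out. The final values were 291, 241 and 258 CPM for wild-type and 248, 267 and 266 CPM for knock-out libraries. Initial groups do not overlap and final groups do. Its log2 fold change was 0.15 (95% interval -0.02 to 0.32, edgeR adjusted p 0.223) at the initial and -0.02 (-0.19 to 0.16, adjusted p 0.916) at the final harvest.

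PYCR3, the cytosolic reductase (ENSG00000104524.14, chromosome 8, 143603210 to 143609773, minus strand), had only 55 to 111 counts in a library. In the wild type it had 1.34, 2.17 and 1.73 CPM at the initial and 2.44, 2.08 and 1.42 CPM at the final harvest, and in the knock-out 2.8, 2.76 and 1.94 CPM and then 1.96, 2.42 and 2.66 CPM. The groups overlap at both harvests, and the log2 fold changes of 0.52 (95% interval 0.04 to 0.99, edgeR adjusted p 0.12) and 0.25 (-0.22 to 0.72, adjusted p 0.51) did not pass. At these counts the SE was 0.222 in both comparisons, against 0.12 for PYCR1. Counts were also low in genes beside it: TIGD5 had at most 1 count, ZNF623 at most 6, and EEF1D, a subunit of the translation elongation factor that all cells need, 446 to 717. The cause of the low counts in this region was not tested, so PYCR3 is left out of the order of levels below and enters only a ratio followed across groups.

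GOT2 and GLUD1 work in mitochondria beside GPT2. GOT2 (ENSG00000125166.13, chromosome 16, 58707131 to 58734342, minus strand) had 190, 237 and 206 CPM in the initial and 238, 240 and 253 CPM in the final wild-type libraries. Its knock-out libraries had 235, 266 and 249 CPM initially and 259, 209 and 258 CPM after culture. Its groups overlap at both harvests, with log2 fold changes of 0.25 (95% interval 0.03 to 0.46, edgeR adjusted p 0.101) and -0.01 (-0.22 to 0.21, adjusted p 0.97). GLUD1 (ENSG00000148672.10, chromosome 10, 87050202 to 87094843, minus strand) had 121, 134 and 133 CPM, then 120, 129 and 134 CPM, in wild-type libraries. Its knock-out libraries had 137, 151 and 149 CPM initially and 132, 107 and 131 CPM after culture. Its initial groups do not overlap, with the knock-out above, and its final groups do; the log2 fold changes were 0.17 (95% interval -0.02 to 0.36, edgeR adjusted p 0.209) and -0.05 (-0.24 to 0.14, adjusted p 0.773). These 95% intervals are for the gene alone, without adjustment over all genes, and a p above the threshold does not show equal levels. In all, 6 of the 8 members had genotypes that do not overlap initially and 4 of 8 after culture, beside 35.5% and 33.1% of tested genes.

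Copies of GLUD1 and GOT2 took few counts. GLUD2, the intronless copy of GLUD1 on the X chromosome, had 0 counts in every library, GLUD1P3 had 27 to 48 and GOT2P2 9 to 27. SHLD2, on the other strand, shares 464 exon bases with GLUD1 and had 837 to 1129 counts. Of these bases, 445 are coding, 26.6% of the coding bases of GLUD1. The strand setting of the counting is not given in the sources used here, so reads of this stretch cannot be told apart.

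**Figure D2:**
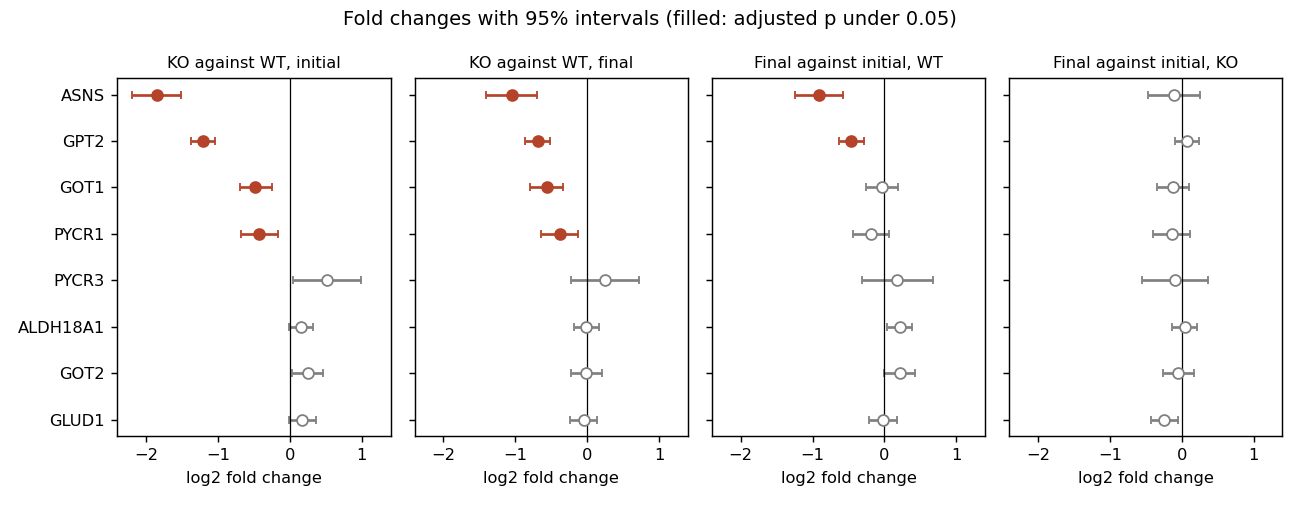
Log2 fold changes of the 8 enzymes (x axis; y axis, genes) in 4 comparisons, with 95% intervals; filled points passed the edgeR test at an adjusted p under 0.05 and open points did not. ASNS, GPT2, GOT1 and PYCR1 lie below 0 in both genotype comparisons, ASNS (-0.91) and GPT2 (-0.46) also over time in the wild type (WT), and no point is filled over time in the knock-out (KO).

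Per kilobase of annotated exon, PYCR1, GOT1, ALDH18A1 and GOT2 were the most abundant of the 6 members compared, in every group. In the initial wild type PYCR1 had 102 ± 18.7, GOT1 71.7 ± 11.4, ALDH18A1 60.7 ± 0.798, GOT2 56.2 ± 6.48, GPT2 22.3 ± 2.24 and GLUD1 9.07 ± 0.515 CPM per kilobase (SD, n = 3). In this order PYCR1 and GOT1 overlapped in range, as did ALDH18A1 and GOT2, and the other neighbours did not. In the final wild type the order of means was PYCR1 (89.8 ± 4.56), ALDH18A1 (70.1 ± 6.75), GOT1 (70 ± 0.207) and GOT2 (64.9 ± 2.15), with overlap between ALDH18A1 and GOT1. GOT1 came after GOT2 in both knock-out groups, at 51.5 ± 2.27 against 66.7 ± 4.01 CPM per kilobase at the initial harvest and 47.3 ± 5.55 against 64.5 ± 7.62 at the final harvest, without overlap. In the initial knock-out GLUD1 (10.2 ± 0.554) and GPT2 (9.64 ± 0.315) overlapped on this measure, where GPT2 had been the higher in the wild type. Of the 14283 exon bases of GLUD1, 11267 lie outside the protein-coding transcripts of GENCODE 29, which lowers its value per kilobase in all groups alike. Such bases are 1902 of 6362 in GPT2, 1304 of 3751 in GOT2, 412 of 3759 in ALDH18A1 and 446 of 2424 in GOT1. The order within a group, also of GOT1 and GOT2 and of GPT2 and GLUD1, therefore depends on the annotated length. The change of a gene between groups does not. An order without these bases was not computed. The order also depends on how reads in exons shared with other genes were counted, which is not given. Such exons hold 858 bases of PYCR1, 464 of GLUD1 and 162 of GOT2.

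Ratios between enzymes in the same library are free of the scaling between libraries. Their size, also whether it is above or below 1, depends on the annotated exon lengths, so only differences between groups are read. The GOT2 to GOT1 ratio, mitochondrial to cytosolic aspartate transaminase, was 0.809, 0.749 and 0.803 in the wild type initially and 0.904, 0.917 and 0.962 after culture. It was 1.27, 1.31 and 1.3 in the initial and 1.36, 1.36 and 1.37 in the final knock-out, so that all knock-out libraries lay above all wild-type libraries. The genotype difference of its log2 value was 0.64, a 1.56-fold higher ratio (exact two-sided permutation test within harvests, p = 0.005, adjusted p 0.0075 over 3 ratios), and 0.005 is the smallest p that its 400 relabellings allow. The GPT2 to GLUD1 ratio, transaminase to dehydrogenase, was 2.47 ± 0.265 and 1.82 ± 0.147 in the initial and final wild type and 0.946 ± 0.0564 and 1.18 ± 0.144 in the knock-out (SD, n = 3). It was 2.01-fold lower in the knock-out (log2 difference -1.01, exact permutation p = 0.005, adjusted p 0.0075). The PYCR3 to PYCR1 ratio was 1.74-fold higher (0.80, exact permutation p = 0.01, adjusted p 0.01), with the low counts of PYCR3 as its limit; its knock-out and wild-type libraries overlap, and the ratio itself is no measure of their relative levels. These tests reuse the values of single genes given above and are not separate evidence.

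**Figure D3:**
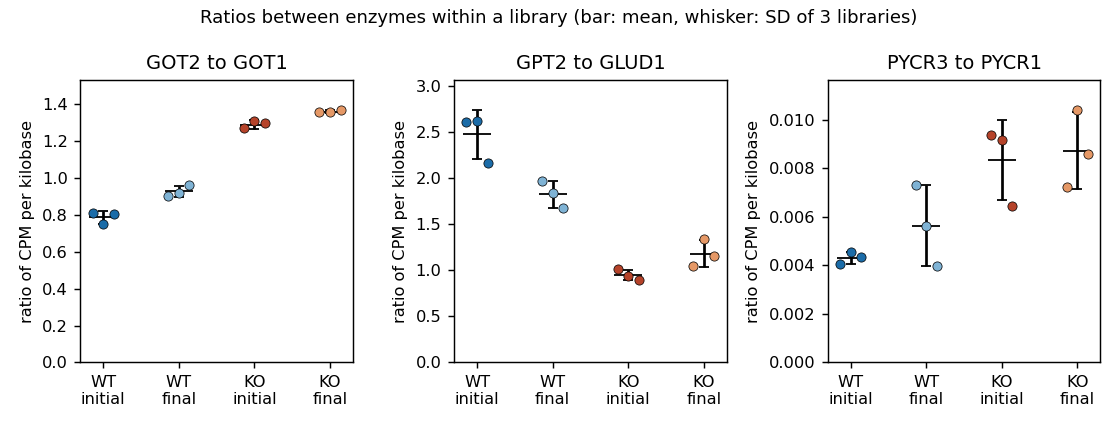
Ratio of CPM per kilobase between pairs of enzymes (y axis, starting at 0) in the 4 groups (x axis; WT, wild type; KO, knock-out); points are libraries, bars means and whiskers SD. GOT2 to GOT1 is 0.749 to 0.962 in the wild type and 1.27 to 1.37 in the knock-out, and GPT2 to GLUD1 moves the other way.

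Over the 2 months of culture, ASNS and GPT2 fell in the wild type and no member was called in the knock-out. ASNS went from 17.5 ± 3.82 to 9.29 ± 0.27 CPM in the wild type (SD, n = 3), 1.88-fold lower (log2 fold change -0.91, SE 0.154, edgeR adjusted p 0.00176). GPT2 went from 142 ± 14.2 to 103 ± 3.11 CPM, 1.37-fold lower (-0.46, SE 0.08, adjusted p 0.0022). These are 2 of 8 members, beside 3.42% of tested genes called lower over time in the wild type, and none was called higher (3.05% of tested genes). For both genes the initial and final libraries do not overlap, as in 22.2% of tested genes. The same holds for ALDH18A1 and GOT2, which were higher at the final harvest without being called. In the knock-out, ASNS stood at 4.83 ± 0.574 and 4.49 ± 0.93 CPM (log2 fold change -0.11, adjusted p 0.826) and GPT2 at 61.3 ± 2 and 64.2 ± 2.43 CPM (0.07, adjusted p 0.747). In edgeR, 0 members were called over time in the knock-out, where 1.48% of tested genes were; 1, GLUD1 (-0.24), had an unadjusted p under 0.05, and DESeq2 called 0. ALDH18A1 (0.21, adjusted p 0.162), GOT2 (0.21, adjusted p 0.267) and PYCR1 (-0.19, adjusted p 0.415) did not pass over time in the wild type.

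The interaction of genotype and harvest asks whether the genotype difference changed between the harvests. It was called for GPT2, whose difference was smaller at the final harvest by 0.52 on the log2 scale (SE 0.113, edgeR adjusted p 0.0292), 1 of 8 members beside 1.28% of tested genes. That call was lost without any 1 of 8 libraries: final wild-type replicate 2 or 3, or any knock-out library (0.48 to 0.55, adjusted p 0.064 to 0.112). For ASNS the interaction was larger, 0.80 (SE 0.231), with an edgeR adjusted p of 0.124; DESeq2 (adjusted p 0.0314), no filter on low counts (0.00464) and leaving out initial wild-type replicate 2 (0.0427) each called it. The interaction was 0.05 for PYCR1 (adjusted p 0.945) and -0.09 for GOT1 (adjusted p 0.857). The initial genotype difference, the change over time in the wild type and the interaction share the initial wild-type libraries, so they are values of the same data seen side by side.

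A list of 42 related enzymes and carriers gives the surroundings of these reactions; 33 were tested, and the other 9, among them AGXT, ASPA, BCAT1, GLUD2 and PRODH2, were too low. On average over both harvests 8 of the 33 were called higher and 5 lower, beside 14% and 16.1% of tested genes, with a median log2 fold change of 0.02 beside 0.00. At the initial harvest 8 were higher and 2 lower (beside 8.55% and 11.3%), at the final harvest 3 and 4 (beside 8.38% and 10.2%). The initial count of 10 went to 6 without initial knock-out replicate 3.

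Among other transaminases, PSAT1 makes phosphoserine with the amino group of glutamate. PSAT1 fell from 364 ± 22.8 to 171 ± 13.4 CPM at the initial harvest (log2 fold change -1.09, edgeR adjusted p 4.09e-07). At the final harvest it was 300 ± 15.2 against 174 ± 17.4 CPM (-0.78, edgeR adjusted p 1.41e-05). Of the 8 tested in that list, PSAT1 and AADAT, which acts on aminoadipate and kynurenine, were called lower on average and ABAT, the GABA transaminase, higher (0.18, adjusted p 0.0375), beside 16.1% and 14% of tested genes. For AADAT the average was -0.21 (edgeR adjusted p 0.0432), a call lost without any 1 of 9 libraries (largest adjusted p 0.108, without initial knock-out replicate 2). AADAT and ABAT were called at neither harvest alone. GPT, the cytosolic counterpart of GPT2, did not pass (0.18, adjusted p 0.405).

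In proline and ornithine metabolism, ARG2, the mitochondrial arginase, was lower at both harvests (-0.65 and -0.75, adjusted p 0.00266 and 0.000963). PRODH, which oxidises proline, was higher at the initial harvest (0.58, adjusted p 0.0227), a call lost without initial wild-type replicate 2 or 3 or initial knock-out replicate 2 or 3 (adjusted p 0.0599 to 0.124), and was not called at the final harvest (0.26, adjusted p 0.324).

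In asparagine and aspartate metabolism, NAT8L, which acetylates aspartate, rose from 23.9 ± 1.21 to 40 ± 0.945 CPM at the initial harvest (0.75, edgeR adjusted p 5.05e-05) and was 24.6 ± 3.12 against 37.3 ± 3.92 CPM at the final harvest (0.60, adjusted p 0.000407). ASS1, which joins aspartate to citrulline, was lower on average (-0.27, edgeR adjusted p 0.00539). It was not called at the initial harvest (-0.15, adjusted p 0.29). Of the 5 listed carriers and dehydrogenases of the malate-aspartate shuttle, in which GOT1 and GOT2 take part, 1 was called higher on average and 1 lower, beside 14% and 16.1% of tested genes; MDH1, MDH2 and SLC25A11 were not called. The aspartate-glutamate carrier SLC25A13 was higher at both harvests (0.53 and 0.49, edgeR adjusted p 0.000179 and 0.000438), and its counterpart SLC25A12 was the lower one (-0.16, adjusted p 0.022). SLC25A12 was not called at the initial harvest (-0.09, adjusted p 0.422). The glutamate carriers SLC25A22 (0.30, edgeR adjusted p 0.00216) and SLC25A18 (0.59, adjusted p 0.0203) were higher on average. Neither was called at the final harvest (0.17 and 0.34, adjusted p 0.235 and 0.416). SLC25A18 had 19 to 49 counts. Its call on average was lost without initial knock-out replicate 1 (adjusted p 0.0508) or final knock-out replicate 2 (0.0611). In glutamine and glutamate metabolism 1 of 7 genes was called higher on average, near the background of 14%, and none lower (16.1%). It was GLUL, glutamine synthetase (0.20, edgeR adjusted p 0.0189), which was not called at the final harvest (0.14, adjusted p 0.307).

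**Figure D4:**
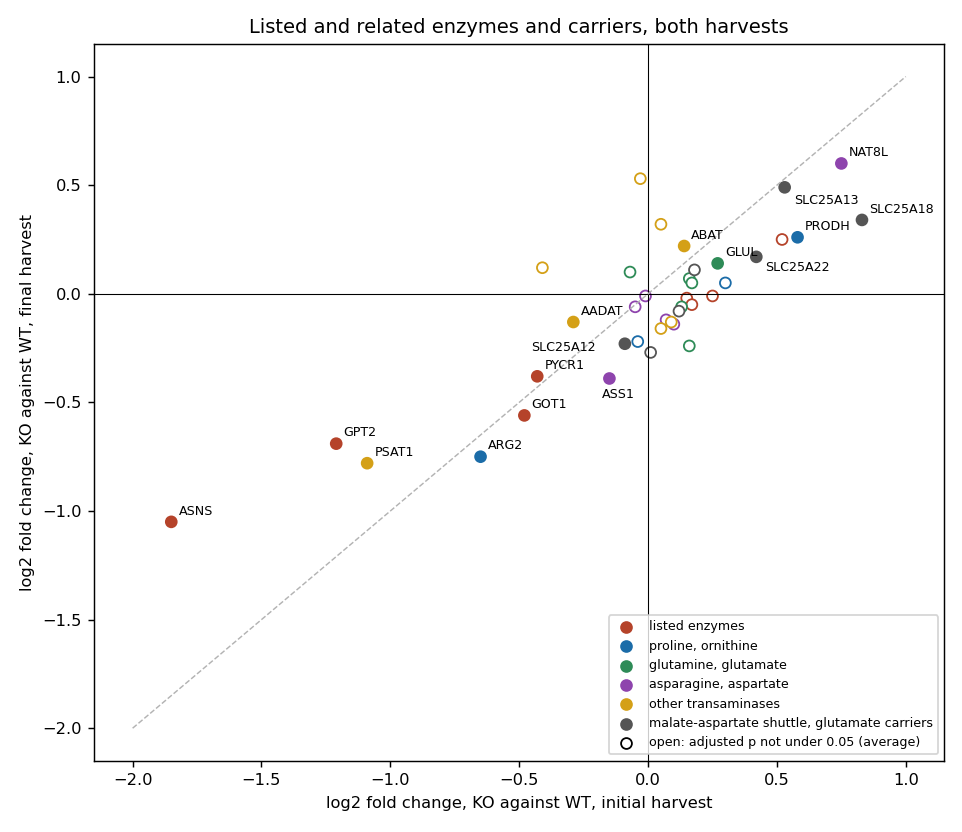
Log2 fold change between genotypes (knock-out over wild type), initial harvest on the x axis and final harvest on the y axis, for the 8 listed enzymes and most of the related genes tested; filled points were called in the average over both harvests and are named, and the dashed line marks equal values. ASNS (-1.85 and -1.05), GPT2 (-1.21 and -0.69) and PSAT1 (-1.09 and -0.78) lie farthest to the lower left, and NAT8L (0.75 and 0.60) is the highest in y among the named genes.

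The patterns across the 12 libraries were compared by the root mean square distance of log2 CPM after each gene was centred on its own mean. Nearest to ASNS were MAMDC2 (0.163) and SLC1A4 (0.247), an exchanger of neutral amino acids; nearest to GPT2 were AFAP1L2 (0.12) and PSAT1 (0.121). STMN1 was among the genes near PYCR1 (0.075), and GOT1 was nearest to PTGR1 (0.068) and SLC4A1AP (0.075). Among the members themselves PYCR1 and GOT1 were each other's nearest (0.103), while the member nearest to ASNS, GPT2, was at 0.37. The genes nearest to the flatter members were NUP88 (0.031) and NOCT (0.046) for GOT2, UBE2Z (0.052) and PELO (0.053) for GLUD1, and DIAPH1 (0.054) and DDX52 (0.055) for ALDH18A1. PYCR3 was nearest to SHISA8 (0.17) and DIPK1B (0.173). Small distances are common among genes that vary little, so the distances of different members are not comparable.

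For the 10 nearest tested genes on each side, the median log2 fold change on average over both harvests was -0.06 around ASNS, 0.05 around GPT2, 0.13 around GOT1 and 0.00 around PYCR1. Of these 20 neighbours, 7, 1, 2 and 2 were called lower, beside 16.1% of tested genes. Around GOT1, 8 neighbours were called higher, beside 14%.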

How the data were processed

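The authors deposited raw counts per gene, 1 column per library, with the gene columns that featureCounts writes, as the file headers show. The submitters' processing notes name STAR, featureCounts, Subread and hg38; versions, annotation release, strandedness and the handling of multiply mapped or ambiguous reads are not given in the sources used here. The 5 lines of a broken gene were left out, and 60506 of 60648 genes got a symbol. All 37318 gene IDs shared with GENCODE 29 had its coordinates. Counts were filtered with filterByExpr by group, TMM-scaled and fitted in edgeR 4.0.16 (R 4.3.3, limma 3.58.1) with a robust quasi-likelihood model of all 12 libraries and 4 group means, without a replicate block. There were 6 comparisons, each adjusted with Benjamini-Hochberg over 18289 genes; the call was an adjusted p under 0.05. DESeq2 1.42.0 was an alternative.

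Ratios of counts per kilobase were tested by exact permutation within harvests. Neighbours, nearest patterns and the related genes named were taken by rule: of related genes, up to 10 with the largest change called on average and up to 2 each over time and in the interaction; ABAT, SLC25A12, GLUL and GPT were named after their values were seen. Members, lists and tests were chosen with earlier results of these data known. Some genes of the lists and of the nearest patterns are counted but not reported here.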

Additional observations from a re-analysis of the deposited data

Results flagged for a closer look

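The genotype difference of GPT2 differed between the harvests by a test of the difference itself: the interaction was 0.52 (log2, final minus initial; SE 0.113, edgeR adjusted p 0.0292), from a difference of -1.21 at the initial to -0.69 at the final harvest. The wild-type libraries moved from 128 to 157 CPM down to 99.8 to 105 CPM, and the knock-out libraries from 59.4 to 63.4 CPM to 62 to 66.8 CPM. Leaving out any 1 of 8 libraries took the adjusted p to between 0.064 and 0.112.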

How the results depend on the processing

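Each count of calls was recomputed under 17 alternatives (16 for the average and the interaction). With 1 library left out, the number of members called was 3 to 5 at the initial harvest, 3 to 4 at the final harvest, 2 to 2 for wild-type cells over time, 0 to 0 for knock-out cells over time, 4 to 5 on average and 0 to 2 in the interaction; for the related genes it was 6 to 11, 6 to 9, 0 to 1, 0 to 0, 10 to 14 and 0 to 0. The log2 differences of the ratios were 0.62 to 0.65 (GOT2 to GOT1), 0.68 to 0.90 (PYCR3 to PYCR1) and -1.05 to -0.97 (GPT2 to GLUD1). DESeq2 and the fit without a filter each called 2 members in the interaction, GPT2 and ASNS. Without initial wild-type replicate 2, the 5 members called at the initial harvest were 3 lower and 2 higher, PYCR3 and GOT2. Where 5 were called on average, 4 were lower and 1, PYCR3, was higher. Over time in the wild type, DESeq2 called 2 related genes and the fit of only the groups compared called 0; over time in the knock-out the latter called 1. For related genes, edgeR called 0 over time in the knock-out (4 at an unadjusted p under 0.05, 0 in DESeq2) and 0 in the interaction (2 and 0).

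Of 1317 values of single genes under alternatives, 1253 kept their direction and their side of the threshold, 38 lost a call, 10 gained one and 16 changed sign, all 16 in genes not called. With 1 library left out, ASNS over time in the knock-out lay between -0.25 and 0.03, and PYCR1 in the interaction between -0.10 and 0.16. PYCR3 lay between 0.00 and 0.37 over time in the wild type and between -0.25 and 0.02 over time in the knock-out, and ALDH18A1 between -0.09 and 0.06 at the final harvest. GOT1 lay between -0.13 and 0.09 over time in the wild type and between -0.22 and 0.00 in the interaction. GOT2 lay between -0.07 and 0.09 at the final harvest (0.00 with only the groups compared) and between -0.11 and 0.04 over time in the knock-out. GLUD1 lay between -0.10 and 0.04 at the final harvest and between -0.07 and 0.01 over time in the wild type. The gained calls include PYCR3 on average without initial wild-type replicate 2 (0.47, edgeR adjusted p 0.0301). Without the same library, PYCR3 (0.70, edgeR adjusted p 0.0411) and GOT2 (0.34, adjusted p 0.0217) were called higher at the initial harvest. The causes were not tested.

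The replicate numbers gave no clear pairing over all 4 groups. Same-numbered libraries of different groups had correlations of their deviations between -0.36 and 0.24, over 0.1 in 6 of 18 pairs. Differently numbered libraries had -0.43 to 0.39. Without the final knock-out, same-numbered libraries had -0.01 to 0.24 and differently numbered ones -0.2 to 0.1. Whether some of the groups are paired is therefore not known. A replicate block left 4 members called in each of the initial, final and average comparisons, and the ratio differences at 0.64, 0.80 and -1.01. Depth limits PYCR3, at 55 to 111 counts in a library, more than the other members.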
